A study of Mus musculus with 6 samples.

Results

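The 4 ID genes (Id1, Id2, Id3 and Id4) and 6 SMAD genes (Smad1, Smad3, Smad4, Smad5, Smad6 and Smad7) were followed in 2 immortal lines of mouse melanocytes, the pigment cells that arise from the neural crest. They were chosen by name as the DNA-binding inhibitors and the signal transducers of the TGF-beta and BMP pathways, and all 10 were measured among 22180 genes on 1-colour Affymetrix arrays. The first line carried 1 Sox10 allele disrupted by LacZ (Sox10LacZ/+; Ink4a-Arf null; derived from mice 3 days old) and is called Sox10 LacZ/+ here. The second, melan-Ink4a-Arf-1, also labelled melan-a, came from Cdkn2a tm1RDp/tm1RDp mice, served as the syngeneic control and is called wild type here; the sources used here do not give the age of its source mice. Both lines therefore lack Ink4a-Arf, and both had a C57BL/6J background through backcrossing. Both were grown at 10% CO2 in 10% serum. The medium of both held 200 nM of the phorbol ester 12-O-tetradecanoylphorbol 13-acetate and 200 pM cholera toxin, an agent that raises cyclic AMP. Each line was measured on 3 arrays, and the labels do not say whether these came from separate cultures, so the p-values cover array-to-array spread, which may be technical. Each genotype is represented by 1 line, so genotype and line cannot be told apart.

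SMAD proteins carry signals of the TGF-beta family from the cell surface to the nucleus. Activated receptors phosphorylate the receptor-regulated SMADs (SMAD1, SMAD5 and SMAD9 below BMP receptors, SMAD2 and SMAD3 below TGF-beta and activin receptors), which join SMAD4 and bind DNA, while SMAD6 and SMAD7 are inhibitory SMADs whose genes are themselves induced by the pathway and which restrain it. The ID proteins are helix-loop-helix proteins without a DNA-binding region: they pair with E proteins and keep these from binding E-box sequences, and Id1, Id2 and Id3 are classical genes of the BMP response. In melanocytes TGF-beta signalling is known for its part in the quiescence of stem cells and in the restraint of pigment genes.

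Promoter sequences are shown for Id2, Id3, Id4 and Smad6. These were chosen because 2 of the 4 ID genes were called higher and 2 were not, and Smad6 alone of the 10 genes passed a 2-fold threshold. Of the members, 7 had a promoter in the RefSeq table of build GRCm38.p6 from which sequence was read (Id2, Id3, Id4, Smad1, Smad3, Smad5 and Smad6). The 250 bases before the transcript start used by that table lay at chr12:25096093-25096342 (minus strand) for Id2, chr13:48260866-48261115 (plus strand) for Id4, chr4:136143572-136143821 (plus strand) for Id3 and chr9:64022060-64022309 (minus strand) for Smad6. In Smad6 the gene's recorded extent begins farther upstream, so the last 26 bases of its window, which hold the GTCT match, lie inside the gene; the windows of the 3 ID genes do not enter it. Each is written 5′ to 3′ on the gene's strand. Capitals mark GGCGCC (the GC-rich element described in SMAD-bound promoters), GTCT and CAGAC (the SMAD box and its extended form, which overlap each other on opposite strands), CANNTG (the E box) and ACAAT (the core bound by SOX factors), each searched on both strands.
Id2: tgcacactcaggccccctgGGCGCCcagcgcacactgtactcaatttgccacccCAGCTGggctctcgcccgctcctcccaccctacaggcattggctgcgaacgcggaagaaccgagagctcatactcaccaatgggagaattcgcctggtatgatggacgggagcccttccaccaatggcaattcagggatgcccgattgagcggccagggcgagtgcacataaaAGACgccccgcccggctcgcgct
Id4: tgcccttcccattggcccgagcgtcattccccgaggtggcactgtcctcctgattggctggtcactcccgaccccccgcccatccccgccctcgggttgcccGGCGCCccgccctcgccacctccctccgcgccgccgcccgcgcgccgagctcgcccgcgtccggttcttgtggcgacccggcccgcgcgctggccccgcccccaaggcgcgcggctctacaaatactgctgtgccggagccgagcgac
Id3: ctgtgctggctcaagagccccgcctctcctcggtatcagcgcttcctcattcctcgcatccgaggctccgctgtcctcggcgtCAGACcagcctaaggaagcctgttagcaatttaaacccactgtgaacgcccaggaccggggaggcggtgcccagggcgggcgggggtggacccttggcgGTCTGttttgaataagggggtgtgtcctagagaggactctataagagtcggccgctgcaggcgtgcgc
Smad6: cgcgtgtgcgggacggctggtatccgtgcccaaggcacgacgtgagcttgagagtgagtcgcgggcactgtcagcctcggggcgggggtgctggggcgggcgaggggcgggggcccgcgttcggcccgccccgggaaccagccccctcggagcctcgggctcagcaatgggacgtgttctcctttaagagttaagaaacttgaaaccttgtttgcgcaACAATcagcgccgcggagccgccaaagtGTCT

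GGCGCC was found in the windows of Id2 and Id4, with its first base 231 and 148 bases before the start, and in 1 of 3 promoters of Smad5, where it lies inside the gene's recorded extent. It was present in 9.6% of the 32841 promoter windows of this length. GTCT was present in 5 of the 7 genes and in 82.9% of all windows, CAGAC in 2 genes and 42.2%, CANNTG in 2 genes and 66.2%, and ACAAT in 1 gene, Smad6, and 27.7%. The members' windows held 60.0% to 75.6% G and C, against a median of 52.4% over all windows. Members were counted by gene, with a match in any of its windows (3 for Smad5), and the shares by single window, so the units differ. A match is a description of the sequence only.

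Before the comparison, the arrays and labels were checked. Sox10 had log2 signals of 9.70, 9.70 and 9.79 in the Sox10 LacZ/+ line and 9.98, 9.80 and 9.95 in the wild type, a difference of −0.18 (SE 0.08, limma adjusted p 0.213); its arrays barely separated, and which part of the transcript the probe set covers is not stated in the sources used here. Of 12 melanocyte markers none (0) was dim in both lines, and the melanosome genes Tyrp1 (12.89 in the Sox10 LacZ/+ line and 12.95 in the wild type) and Pmel (12.85 and 12.63) were among the brightest genes. Lower in the Sox10 LacZ/+ line were Tyr (8.65 and 10.75, difference −2.10), the gene of the key pigment enzyme, Rab38 (−1.30), Gpr143 (7.17 and 8.17), Oca2 (−0.88) and Dct (−0.68). Kit (2.29) and Mitf (0.67) were higher, and these markers were singled out after their values were seen. Xist averaged 11.06 in the Sox10 LacZ/+ line and 4.81 in the wild type, and Eif2s3y, a Y-linked gene, 4.43 and 9.28, so a difference in sex cannot be told apart from genotype either. Array medians lay between 5.72 and 5.78. Wild-type replicate 2 stood apart, where 261 genes lay 2-fold or more away from its own line's remaining arrays. That number was 22 for wild-type replicate 1, 54 for wild-type replicate 3 and at most 2 for any Sox10 LacZ/+ array. The counts of members and of listed genes below are therefore also given without it.

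Of the 10 genes, 5 rose in the Sox10 LacZ/+ line and 0 fell: Id2, Id4, Smad3, Smad6 and Smad7. A gene was called in limma when its p-value, adjusted by Benjamini-Hochberg across the whole table, was below 0.05, which called 13.4% of all genes, 7.46% as higher and 5.92% as lower. The other 5, Id1, Id3, Smad1, Smad4 and Smad5, did not pass. At an unadjusted p below 0.05 the count was also 5, against 24.9% of all genes. With a 2-fold threshold on top, 1 gene passed, Smad6, as did 3.53% of all genes. These shares are over all 22180 genes, of which 7249 were dim in both lines, under the 40th percentile of the table's probe sets. None (0) of the 10 members was dim in both, so the shares are not for genes of like signal. In bulk RNA such as this, fewer cells that express a gene and less of its RNA per cell cannot be told apart. The median difference of the 10 genes was 0.30, with 9 of 10 values above 0, against a median of 0.001 over all genes. Leaving out wild-type replicate 2, or any other single array, gave the same counts of 5 higher and 0 lower.

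**Figure D1:**
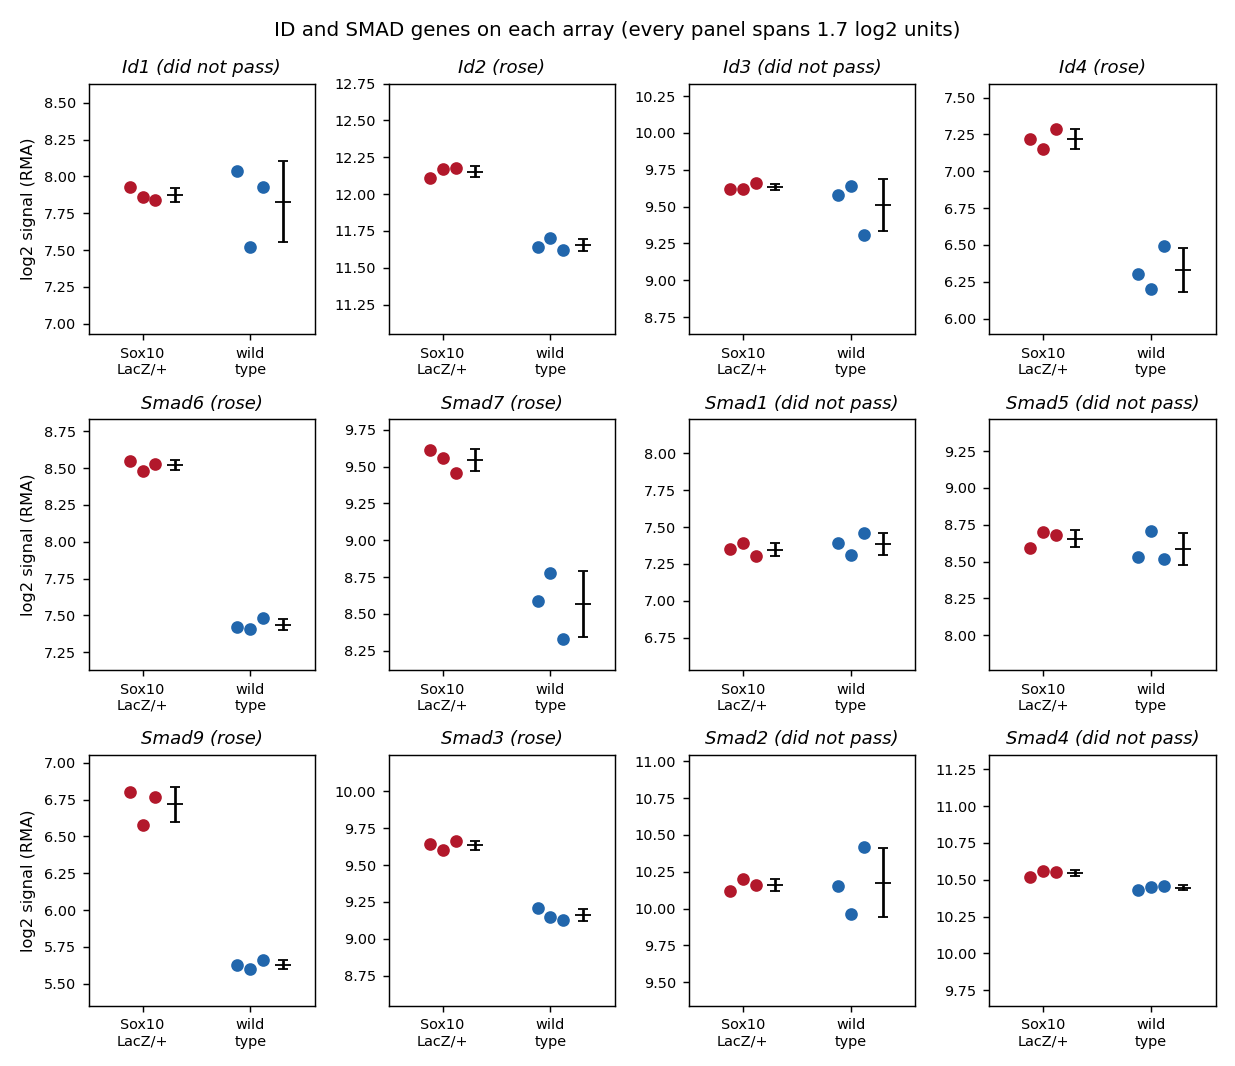
Log2 signal of the 10 ID and SMAD genes, and of Smad9 and Smad2, on each array of the Sox10 LacZ/+ line (red, left) and the wild-type line (blue, right); black marks give the mean and SD of 3 arrays, and every panel spans the same number of log2 units. The arrays of the lines stand apart in Id2, Id4, Smad3, Smad6, Smad7 and Smad9, and by a small gap in Smad4.

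Among the ID genes, Id2 and Id4 rose while Id1 and Id3 did not pass. Id2, whose protein also binds the retinoblastoma protein, had log2 signals of 12.11, 12.17 and 12.18 in the Sox10 LacZ/+ arrays and 11.64, 11.70 and 11.62 in the wild-type arrays. Its lowest Sox10 LacZ/+ array lay above its highest wild-type array, and the spread within each line was small (SD 0.04 in both). The difference was 0.50 (SE 0.07; 95% confidence interval 0.34 to 0.66; 1.41-fold; limma adjusted p 0.00235). In mean signal Id2 ranked above 99.5% of probe sets in the Sox10 LacZ/+ line and above 98.7% in the wild type.

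Id4, the ID family member known from the nervous system for its part in the timing of glial differentiation, showed the largest difference of the 4. Its log2 signals were 7.22, 7.15 and 7.29 in the Sox10 LacZ/+ arrays and 6.30, 6.20 and 6.49 in the wild-type arrays, again without overlap. The difference was 0.89 (SE 0.09; 95% confidence interval 0.68 to 1.11; 1.85-fold; limma adjusted p 0.000458). Its mean signal ranked above 69.8% of probe sets in the Sox10 LacZ/+ line and above 59.3% in the wild type.

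Id1, the ID gene widely used as a read-out of BMP signalling, had log2 signals of 7.93, 7.86 and 7.84 in the Sox10 LacZ/+ arrays and 8.04, 7.52 and 7.93 in the wild-type arrays. The groups overlapped, and the wild-type values were spread more widely (SD 0.05 in the Sox10 LacZ/+ line and 0.27 in the wild type) with wild-type replicate 2 the lowest. The difference was 0.05 (95% confidence interval −0.26 to 0.35; limma adjusted p 0.876), and −0.11 without wild-type replicate 2 (adjusted p 0.391). Id3, which is often co-expressed with Id1, had 9.62, 9.62 and 9.66 in the Sox10 LacZ/+ arrays and 9.58, 9.64 and 9.31 in the wild-type arrays. Here wild-type replicate 3 was the low array and the other 2 lay at or near the Sox10 LacZ/+ values. Its difference was 0.13 (95% confidence interval −0.10 to 0.35; limma adjusted p 0.495), so a rise as large as the 0.50 of Id2 lay outside the interval of either gene. Whether the ID genes differ from each other in their response was not tested.

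Both inhibitory SMAD genes rose. Smad6, whose protein preferentially restrains BMP receptor signalling, had log2 signals of 8.55, 8.48 and 8.53 in the Sox10 LacZ/+ arrays and 7.42, 7.41 and 7.48 in the wild-type arrays. Values within each line differed by at most 0.07, and the arrays of the lines were far from overlapping. The difference was 1.09 (SE 0.07; 95% confidence interval 0.93 to 1.24; 2.12-fold; limma adjusted p 2.64e-05), which ranked 731st in size among the 22180 genes.

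Smad7, whose protein restrains both TGF-beta and BMP receptors, had 9.61, 9.56 and 9.46 in the Sox10 LacZ/+ arrays and 8.59, 8.78 and 8.33 in the wild-type arrays. Every Sox10 LacZ/+ array lay above every wild-type array, and the wild-type arrays were again the more variable (SD 0.08 in the Sox10 LacZ/+ line and 0.23 in the wild type). The difference was 0.97 (SE 0.12; 95% confidence interval 0.70 to 1.24; 1.96-fold; limma adjusted p 0.00109) and lay between 0.85 and 1.08 with single arrays left out. The order of the largest differences was not stable: Smad7 was above Smad6 without wild-type replicate 2 (1.08 and 1.07), and Id4 was above Smad7 without wild-type replicate 3 (0.97 and 0.85).

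The receptor-regulated SMADs did not move as a class. Smad3, the transducer of TGF-beta and activin signals that binds DNA directly, had 9.64, 9.60 and 9.66 in the Sox10 LacZ/+ arrays and 9.21, 9.15 and 9.13 in the wild-type arrays. The arrays did not overlap and the difference was 0.47 (SE 0.07; 95% confidence interval 0.31 to 0.63; 1.39-fold; limma adjusted p 0.003). Smad2, its close relative in the same branch, was added for comparison and had 10.12, 10.20 and 10.16 in the Sox10 LacZ/+ arrays and 10.15, 9.96 and 10.42 in the wild-type arrays. These overlapped, with a difference of −0.02 (95% confidence interval −0.28 to 0.25; limma adjusted p 0.947) whose sign changed without wild-type replicate 3 (0.10) and with median centring of the arrays (0.01).

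On the BMP side, Smad1 had 7.35, 7.39 and 7.30 in the Sox10 LacZ/+ arrays and 7.39, 7.31 and 7.46 in the wild-type arrays, and the difference was −0.04 (95% confidence interval −0.21 to 0.13; limma adjusted p 0.803). Smad5 had 8.59, 8.70 and 8.68 in the Sox10 LacZ/+ arrays and 8.53, 8.71 and 8.52 in the wild-type arrays, a difference of 0.07 (95% confidence interval −0.12 to 0.26; limma adjusted p 0.685). In both genes the arrays overlapped. Smad9, also added for comparison, encodes the third transducer of this branch and did rise: 6.80, 6.58 and 6.77 in the Sox10 LacZ/+ arrays and 5.63, 5.60 and 5.66 in the wild-type arrays, a difference of 1.09 (SE 0.08; 95% confidence interval 0.89 to 1.28; limma adjusted p 8.06e-05). Its wild-type signal ranked above 47.9% of probe sets, the lowest rank of these genes.

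Smad4, the partner shared by all receptor-regulated SMADs, had 10.52, 10.56 and 10.55 in the Sox10 LacZ/+ arrays and 10.43, 10.45 and 10.46 in the wild-type arrays. The arrays did not overlap, but the difference of 0.10 was small (95% confidence interval −0.05 to 0.26; limma adjusted p 0.406). Counting it, 6 of the 10 genes had arrays that did not overlap between the lines, where 31.6% of all genes did.

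**Figure D2:**
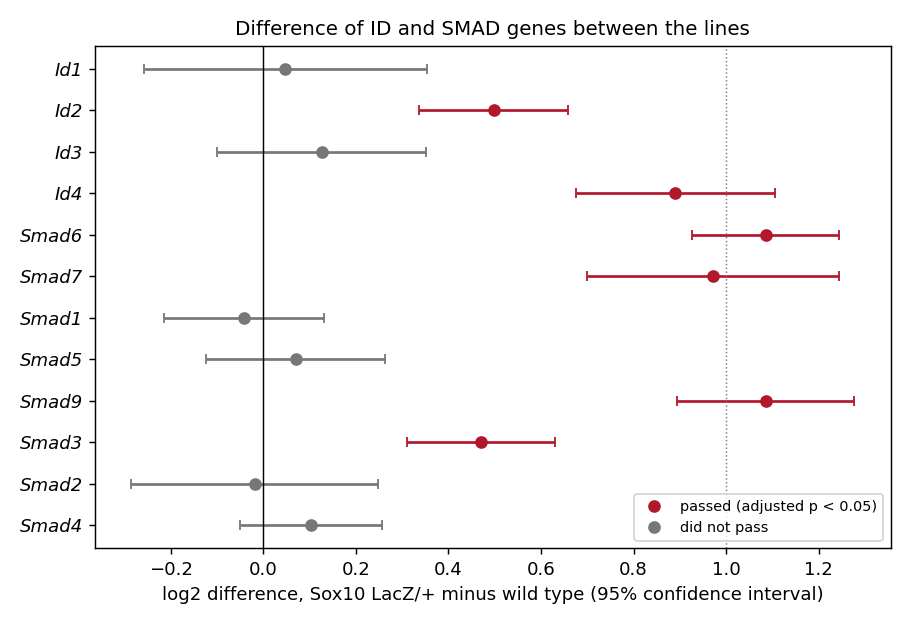
Log2 difference between the lines (Sox10 LacZ/+ minus wild type) with its 95% confidence interval from limma for each gene; red marks genes that passed, grey those that did not, and the dotted line marks 2-fold. The intervals of Smad6, Smad7, Smad9 and Id4 lie highest and those of Id1, Id3, Smad1, Smad5, Smad2 and Smad4 include 0.

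Within the Sox10 LacZ/+ line the SD of the 10 genes ranged from 0.02 (Smad4) to 0.08 (Smad7), and within the wild type from 0.02 (Smad4) to 0.27 (Id1). Across all genes the median SD was 0.08 in the Sox10 LacZ/+ line and 0.12 in the wild type. The differences of Smad6, Smad7, Id4, Id2 and Smad3 were larger in size than those of 96.7%, 96.2%, 95.7%, 90.9% and 90.2% of all genes, and those of the other 5 members lay between the 20.3rd and the 53.1st percentile.

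**Figure D3:**
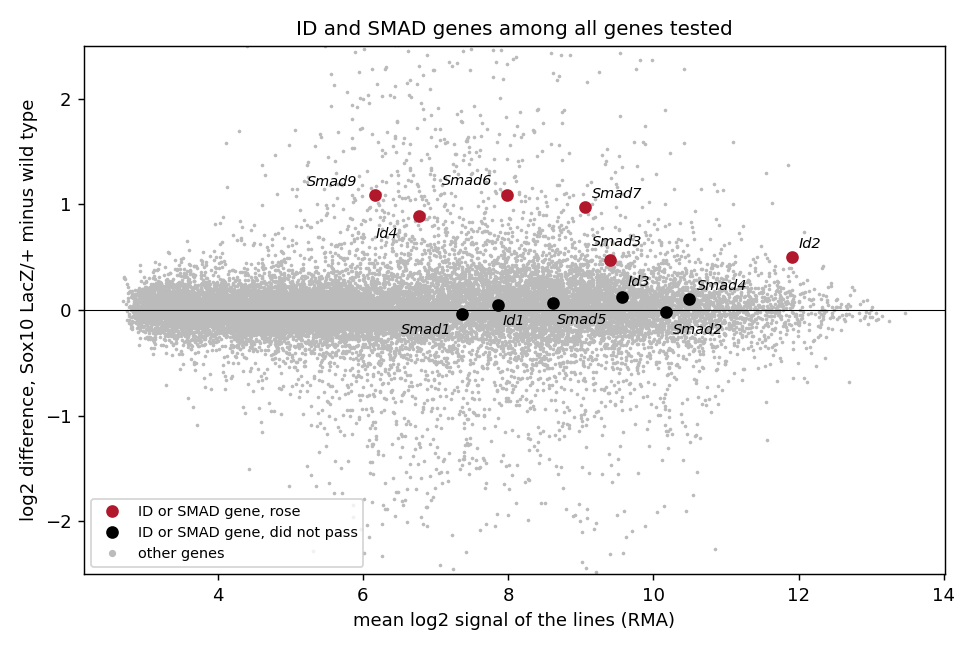
Log2 difference between the lines (Sox10 LacZ/+ minus wild type) against the mean log2 signal of the lines for all 22180 genes (grey), with the ID and SMAD genes that rose (red) and that did not pass (black); 179 genes lie outside the vertical axis. Smad6, Smad7, Smad9 and Id4 lie above most genes of like signal, and Id2 does so at the bright end.

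Neighbouring genes were examined because Smad3 and Smad6 lie next to each other on chromosome 9, and Smad2 and Smad7 lie close together on chromosome 18 (gene order from GRCm38.p6). No measured gene lies between Smad3 and Smad6 (0 genes). Of the 10 measured genes on each side of this pair, 2 of 20 rose, 0 fell and 18 did not pass, with a median difference of −0.01. The 2 that rose were Cln6, a gene of an endoplasmic reticulum protein (0.39, limma adjusted p 0.0388), and the small nucleolar RNA gene Snord16a (1.59, limma adjusted p 4.84e-05). Around Smad7 and Smad2, 1 of 23 neighbours rose (Pstpip2, 0.47, limma adjusted p 0.0288), 0 fell and 22 did not pass, with a median of 0.05. These neighbours were named after their values were seen, and the share called over all genes was 13.4%.

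Genes whose 6 array values ran most like those of a member were found by the root mean square difference of mean-centred log2 values, over 14533 genes that were not in any list here and had at least the 40th percentile of signal. For Smad6 these were Cask, Sestd1 and Nr4a1 (0.044, 0.052 and 0.052), and for Smad7 Prox1, Rtp4 and Nop2 (0.062, 0.063 and 0.071). For Id4 they were Tgfb1i1, Sytl2 and Nsg1 (0.037, 0.044 and 0.057). For Id2 they were Gars, Ints7 and Pif1 (0.025, 0.030 and 0.033), and for Smad3 Arpc4, Slc43a3 and Nos1ap (0.023, 0.025 and 0.026). Among the members, Id2 and Smad3 were nearest to each other (0.047), and Id4 and Smad6 were (0.119). By construction this measure is small for genes with a like difference between the lines and little spread within them. The difference was 0.50 for Id2 and 0.47 for Smad3. Shared regulation was not tested.

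Other genes of the pathway were read from lists of ligands, antagonists, receptors, intracellular regulators, DNA-binding partners, E proteins and response genes. Of 99 measured genes in these lists together, Smad2 and Smad9 included, 24 rose, 6 fell and 69 did not pass, so that 30.3% passed against 13.4% of all genes. Of the 99 genes 12 were dim in both lines, as were 7249 of all 22180, so these shares are not for genes of like signal. Some genes stand in more than 1 list. Without wild-type replicate 2, 39 of the 99 passed, and 4222 of all genes against 2967 with every array.

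Receptor genes that changed all rose: 5 of 14, with 9 that did not pass, and a median difference of 0.23. Tgfbr2, the receptor that binds TGF-beta ligands first, averaged 10.46 in the Sox10 LacZ/+ line and 9.09 in the wild type, a difference of 1.36 (SE 0.17, limma adjusted p 0.00137). Tgfbr1, the partner receptor that phosphorylates SMAD2 and SMAD3, averaged 8.97 and 8.06 in the Sox10 LacZ/+ and the wild-type line (difference 0.90, limma adjusted p 0.000652). Eng, a co-receptor, differed by 1.01 (limma adjusted p 0.000355), the activin receptor gene Acvr2a by 0.57 (limma adjusted p 0.00477), and Acvr1b, an activin receptor gene named after its value was seen, by 0.55 (limma adjusted p 0.00325). The BMP receptor genes Bmpr1a (0.20), Bmpr1b (0.25) and Bmpr2 (−0.01), also singled out after their values were seen, did not pass (limma adjusted p 0.118, 0.177 and 0.976), and Bmpr1b was dim in both lines (3.71 and 3.46). The remaining receptor genes that did not pass were Acvrl1 (0.53, limma adjusted p 0.0643), Acvr1 (−0.29), Acvr2b (−0.21), Tgfbr3 (−0.19), Rgmb (−0.03) and Acvr1c (0.02, dim in both lines). Without wild-type replicate 2, 5 receptor genes were higher and 1 lower.

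Of 15 ligand genes 3 rose, 0 fell and 12 did not pass (median 0.02). Tgfb2 averaged 9.34 in the Sox10 LacZ/+ line and 6.34 in the wild type, a difference of 3.01 (SE 0.30, limma adjusted p 0.000351). Tgfb3 differed by 1.47 (SE 0.08, limma adjusted p 7.58e-06), and Gdf11, an activin-like ligand gene, by 0.52 (limma adjusted p 0.00968; 0.0501 without Sox10 LacZ/+ replicate 3). The ligand genes Bmp2 and Bmp4, singled out after their values were seen, were dim in both lines, with signals under the 40th percentile of the table's probe sets: Bmp2 averaged 4.38 in the Sox10 LacZ/+ line and 4.29 in the wild type, and Bmp4 4.79 and 4.75. With Bmp5 (4.42 and 4.52), these were the only 3 of the 15 ligand genes dim in both lines. Bmp7 was not dim (6.65 in the Sox10 LacZ/+ line and 6.74 in the wild type) and did not pass. Tgfb1 differed by −0.25 and did not pass (limma adjusted p 0.0676). Bmp5, Bmp7 and Tgfb1 were also named after their values were seen. Without wild-type replicate 2, 3 ligand genes were higher and 1 lower.

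Of 11 genes of extracellular antagonists and binding proteins, 1 rose, 2 fell and 8 did not pass (median 0.03). Grem1, which encodes a BMP antagonist, averaged 6.01 in the Sox10 LacZ/+ line and 10.75 in the wild type (difference −4.74, SE 0.17, limma adjusted p 8.77e-07). Fstl1, a follistatin-like glycoprotein gene, averaged 10.38 in the Sox10 LacZ/+ line and 6.09 in the wild type (difference 4.29, SE 0.10, limma adjusted p 1.53e-07). Fstl3, an activin-binding protein gene, differed by −0.31 (limma adjusted p 0.0482), and it passed without wild-type replicate 2 but not without any other single array (adjusted p up to 0.187). Without wild-type replicate 2 the counts were 1 higher and 3 lower.

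Among 17 intracellular regulators of SMADs, 3 rose, 1 fell and 13 did not pass (median 0.07). The corepressor genes Tgif1 and Skil differed by 0.50 (limma adjusted p 0.00391) and 0.49 (limma adjusted p 0.0137). The ubiquitin ligase gene Smurf2 differed by 0.31 (limma adjusted p 0.0235) and Nedd4l, another ligase gene of this pathway, by −0.39 (limma adjusted p 0.0156). Of these 4 only Tgif1 passed with every single array left out. Skil did not pass without Sox10 LacZ/+ replicate 1 or 2 (adjusted p up to 0.065), Nedd4l without any 1 of the Sox10 LacZ/+ arrays (up to 0.0768), and Smurf2 without any 1 of them or wild-type replicate 1 (up to 0.102). Counts were 1 higher and 0 lower without Sox10 LacZ/+ replicate 1 or 2, 2 higher and 0 lower without replicate 3, and 4 higher and 2 lower without wild-type replicate 2.

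The E proteins, the partners that ID proteins hold off DNA, went in both directions: Tcf4 rose, Tcf12 fell and Tcf3 did not pass. Tcf4 averaged 10.19 in the Sox10 LacZ/+ line and 9.56 in the wild type (difference 0.63, SE 0.07, limma adjusted p 0.000474). Tcf12 averaged 10.99 and 11.33 (difference −0.34, limma adjusted p 0.0207), and this call was lost without any 1 of the Sox10 LacZ/+ arrays or wild-type replicate 1 (adjusted p up to 0.0908). It was also lost with the replicate number as a block (adjusted p 0.058). Without wild-type replicate 2 the counts stayed at 1 higher and 1 lower. Among 10 DNA-binding partners and coactivators of SMADs, Zeb1, a repressor gene of epithelial genes, rose (0.77, limma adjusted p 0.000682), Atf3, a stress-induced factor gene, fell (−0.88, limma adjusted p 0.0269) and 8 did not pass (median −0.03). Atf3 passed without wild-type replicate 2 (−1.14) but not without any other single array (adjusted p up to 0.104). Without wild-type replicate 2, 3 of the 10 were higher and 1 lower.

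Response genes were read in separate lists for the 2 branches, and the members themselves were kept out of both. Of 19 TGF-beta response genes, 8 rose, 1 fell and 10 did not pass, with a median difference of 0.28. Acta2, the smooth muscle actin gene, averaged 12.45 in the Sox10 LacZ/+ line and 7.11 in the wild type (difference 5.34, limma adjusted p 1.29e-07). Ccn2, a matricellular protein gene, averaged 11.17 and 7.29 (difference 3.88, limma adjusted p 8.37e-07); its second, dimmer probe set differed by 0.46, and the mean of both by 2.17. Col1a2, a collagen gene, differed by 1.24 (limma adjusted p 6.14e-05; 2.49 on its second probe set) and Tgfbi, a matrix protein gene, by 1.08 (limma adjusted p 0.00012). The gene that fell was Cdkn1a, a cell cycle inhibitor gene named after its value was seen (10.45 in the Sox10 LacZ/+ line and 11.34 in the wild type, limma adjusted p 9.95e-05). Counts with single arrays left out ran from 5 higher and 1 lower (without Sox10 LacZ/+ replicate 2) to 9 higher and 2 lower (without wild-type replicate 2, median 0.12).

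Of 14 BMP response genes, 2 rose, 1 fell and 11 did not pass, with a median of −0.05. Of these 14 genes 4 were dim in both lines, under the 40th percentile of the table's probe sets, against 0 of the 19 TGF-beta response genes. Gata2, a transcription factor gene, averaged 9.94 in the Sox10 LacZ/+ line and 7.53 in the wild type (difference 2.41, SE 0.14, limma adjusted p 1.39e-05). Atoh8, a basic helix-loop-helix gene, differed by 0.75 (limma adjusted p 0.0199) and did not pass without any 1 of the Sox10 LacZ/+ arrays (adjusted p up to 0.0741). Grem1, described above, was the gene that fell. Counts were 1 higher and 1 lower without any 1 of the Sox10 LacZ/+ arrays, and 2 higher and 2 lower without wild-type replicate 2. The difference between the lists was not tested.

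**Figure D4:**
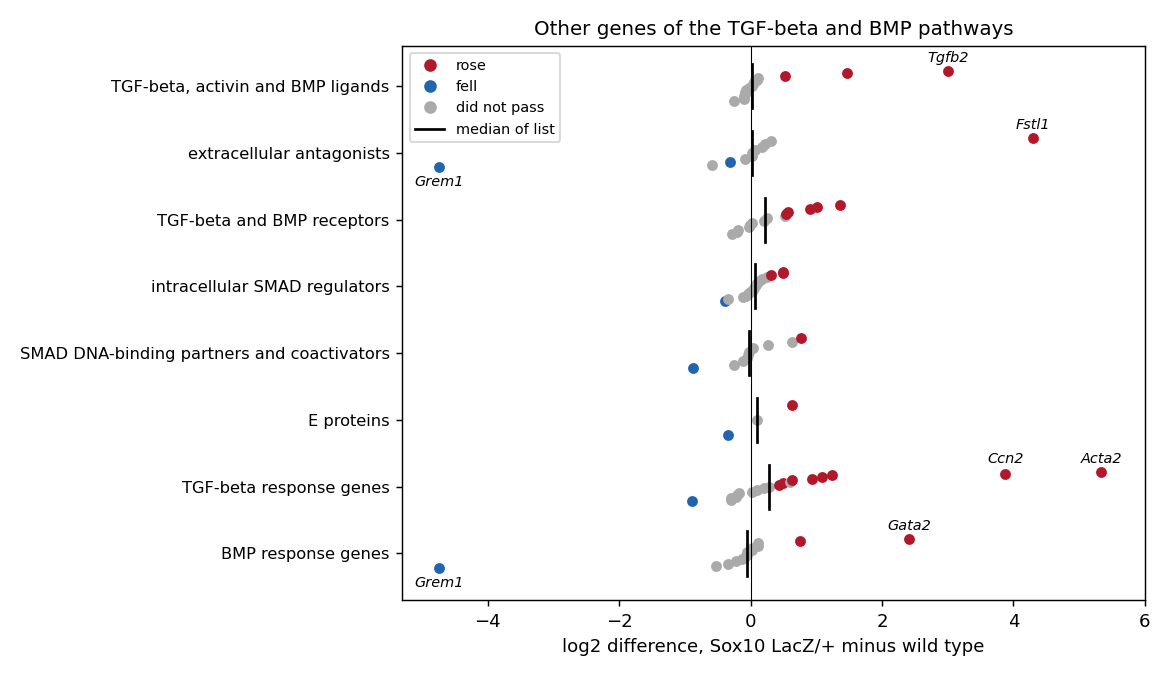
Log2 difference between the lines (Sox10 LacZ/+ minus wild type) of every measured gene in 8 lists of the TGF-beta and BMP pathways; red marks genes that rose, blue those that fell, grey those that did not pass, and the black bar the median of each list. The bar lies farthest right for TGF-beta response genes (0.28) and receptors (0.23) and is below 0 for BMP response genes (−0.05). This order was not stable: without wild-type replicate 2 the median was 0.12 for TGF-beta response genes, 0.28 for receptors and 0.16 for E proteins. Of the BMP response genes 4 were dim in both lines, and of the TGF-beta response genes 0.

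Markers of other cell types also differed between the lines, and their part in the values above was not tested. Over all genes 7.46% were called higher and 5.92% lower. The lists share genes: Acta2, Tagln and Col1a2, which make up 3 of the 8 TGF-beta response genes that rose, are also smooth muscle or fibroblast markers here. Of 10 fibroblast markers 4 rose (5 without wild-type replicate 2), 0 fell and 6 did not pass; the log2 of their summed signal was 12.59 to 12.62 in the Sox10 LacZ/+ line and 9.89 to 10.23 in the wild type. The fibroblast genes Dcn (10.80 and 4.88 in the Sox10 LacZ/+ and the wild-type line) and Pdgfrb (10.35 and 6.27) differed most, while Lum (3.54 and 3.64) was dim in both lines, under the 40th percentile of the table's probe sets. Fbln1 (10.88 and 7.71) and Col1a2 also rose. Col1a1 (difference −0.20), Thy1 (−0.14), Col3a1 (0.10), Pdgfra (0.15) and Postn (1.10) did not pass. Of 10 smooth muscle and endothelial markers 4 rose and 0 fell, also without wild-type replicate 2. Without wild-type replicate 1 or any 1 of the Sox10 LacZ/+ arrays, 3 rose. The list's summed log2 signal was 12.56 to 12.64 in the Sox10 LacZ/+ line and 9.24 to 9.34 in the wild type, led by Acta2. Myh11 (difference −0.06), Des (0.14), Pecam1 (0.14) and Cdh5 (0.23) did not pass, nor did Tek and Kdr. Tek (4.07 and 4.14) and Kdr (4.77 and 4.77) were under the 40th percentile in both lines. Of 7 Schwann cell markers 5 fell and 0 rose, also without wild-type replicate 2, but 4 fell without any other single array. The summed log2 signal of these markers was 10.80 to 10.84 in the Sox10 LacZ/+ line and 12.81 to 13.01 in the wild type. Among them Gjc3 (5.77 in the Sox10 LacZ/+ line and 11.70 in the wild type) differed most, and Mbp (difference −0.12) and Egr2 (−0.16) did not pass. Of the 12 melanocyte markers 2 rose (4 without wild-type replicate 2), 5 fell (also 5 without it) and 5 did not pass, with a summed log2 signal of 15.39 to 15.41 in the Sox10 LacZ/+ line and 15.45 to 15.65 in the wild type. Of 8 leukocyte markers 2 rose, also without wild-type replicate 2, but 1 without wild-type replicate 1 or any 1 of the Sox10 LacZ/+ arrays. The 2 were Cd68 (8.46 in the Sox10 LacZ/+ line and 7.14 in the wild type) and Fcer1g (6.08 and 5.72), and 5 of the 8 markers were dim in both lines. Of 7 keratinocyte markers 0 passed in limma (1 had an unadjusted p below 0.05, and 1 was higher without wild-type replicate 2). The leukocyte and keratinocyte lists' summed log2 signals were 9.19 to 9.27 and 9.14 to 9.31 in the Sox10 LacZ/+ line, and 8.54 to 8.65 and 8.99 to 9.36 in the wild type. The leukocyte gene Ptprc was under the 40th percentile in both lines.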

How the data were processed

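RNA of 6 arrays was measured. The authors deposited log2 values made with RMA, per the submitters' processing notes, which also name Partek; the sources used here state neither versions nor settings. Of 41345 probe sets, 16010 had no listed gene, 1814 had several symbols and 23521 had exactly 1. For each gene the probe set of highest mean signal was kept, which left 22180 genes; each ID and SMAD gene had 1 probe set. Values were used as deposited, with no filter on dim genes. An array gives no counts, so the number of arrays limits the precision.

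All genes were fitted with limma 3.58.1 (R 4.3.3; lmFit, then eBayes; 2-sided tests with 7.87 total degrees of freedom). Differences are Sox10 LacZ/+ minus wild type. On simulated arrays of the same 22180 genes, 54.5% of genes changed by 0.5, 97.0% of those changed by 1 and 100.0% of those changed by 2 (log2) were recovered. Only 66, 67 and 67 genes were changed by these sizes, against 2967 called in the data, and the noise was the same in both lines. The shares are therefore not recovery rates of this comparison. Array numbers were not used as a block in the main fit, because they are not said to pair arrays. Deviations of same-numbered arrays did not correlate (r of 0.007, 0.016 and −0.004).

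The genes, lists and tests were chosen with earlier results of these data known. Named besides the ID and SMAD genes were Sox10 and, per list, up to 4 genes that passed, by size of difference. Alternatives were other normalizations, probe set rules, variance models, thresholds, the array number as a replicate block, and leaving out single arrays.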

Additional observations from a re-analysis of the deposited data

How the results depend on the processing

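The counts of 5 higher and 0 lower among the 10 ID and SMAD genes held with quantile normalization, median centring, removal of dim genes, the other probe set rules, eBayes with trend or robust, array weights, adjusted p thresholds of 0.01 and 0.1, the replicate block and each array left out. The exceptions were the 2-fold threshold, which left 1 higher (Smad6), and the fit without variance moderation, which gave 6 higher, with Smad4 at an adjusted p of 0.0433. Adjusted p-values over the alternatives ran from 0.000179 to 0.0182 for Id2, 0.000133 to 0.0183 for Id4, 0.00147 to 0.0226 for Smad3, 9.75e-06 to 0.00132 for Smad6 and 0.000182 to 0.0351 for Smad7. The sign of Id1 turned with array weights (−0.0549) and without wild-type replicate 2, with −0.11 to 0.15 over single arrays left out. That of Smad2 turned with median centring (0.0107) and without wild-type replicate 3, with −0.12 to 0.10 over single arrays left out. Over all genes 2967 passed, with 1717 without variance moderation, 1588 at 0.01, 782 with the 2-fold threshold on top, and 1768 to 4222 with single arrays left out. Of the genes in the other pathway lists 30 passed, 12 with the 2-fold threshold on top, 28 with the replicate block and 21 to 39 with single arrays left out. With the replicate block 2512 of all genes passed, and among the genes named, Fstl3, Smurf2 and Tcf12 lost their calls (adjusted p 0.111, 0.0639 and 0.058). A stricter threshold or fewer arrays lowers counts by construction; the cause of the other changes was not tested. The arrays' background was not measured here, so how far it limits the fold of a dimmer gene such as Smad9 was not tested.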
